A study of Mus musculus with 6 samples.

Results

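Amino acid transporters are described here in regulatory T cells (Tregs) of the mouse, the suppressive CD4 lineage made by Foxp3, across 7 solute carrier families: Slc1, Slc3, Slc6, Slc7, Slc36, Slc38 and Slc43. Members were taken by name, as protein-coding genes whose symbol begins with 1 of these family names, whatever their values. This gave 64 genes of 55840 in the table, or of 21900 protein-coding genes: 7 in Slc1, 2 in Slc3, 21 in Slc6, 16 in Slc7, 4 in Slc36, 11 in Slc38 and 3 in Slc43. Slc7a6os meets the naming rule but is no transporter. It is a neighbour of Slc7a6 on the opposite strand, which leaves 63 carriers and heavy chains. The study sequenced RNA of Tregs from spleen and lymph nodes (LNs), 3 biological replicates from wild-type (WT) mice and 3 labelled Exon2KO, whose allele the series text writes as Foxp3∆2. The labels used here give no treatment, age, strain, number of mice per library or marker used to purify the cells, and how the allele was made is not given in them. Libraries are called by genotype and the number in their column name (2, 6 or 20), because the columns could not be tied to the numbered titles.

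Amino acids cross membranes mainly through carriers. T cells are known to take up glutamine, leucine, arginine and serine to grow and to keep the kinase complex mTORC1 active. Some carriers work at the cell surface and others in the lysosome membrane, where they also report amino acid supply to mTORC1. The light chains of the Slc7 family reach the surface only when bound to a heavy chain of the Slc3 family, and most of them exchange an inside amino acid for an outside one.

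Library totals lay between 17998216 and 21003496 counts. The Treg markers were present in all 6 libraries, with summed levels of 767 to 878 FPKM in WT and 677 to 779.9 FPKM in Exon2KO libraries (FPKM are counts scaled by gene length and library size, the scale used below to compare genes). Foxp3 itself stood at 171, 132 and 164 FPKM in WT 2, 6 and 20 and at 180.5, 149 and 202 FPKM in Exon2KO 2, 6 and 20; counts over a whole gene do not check the loss of 1 exon. Of the 8 Treg markers, 3 were called lower in Exon2KO (Il2ra, Ctla4 and Ikzf2), where 1.58% of all tested genes were. Summed markers of other cells were low but not 0: B cell markers at 18.8 to 20.4 FPKM in WT and 14.2 to 16.2 FPKM in Exon2KO, and CD8 and NK cell markers at 9.40 to 10.2 and 9.87 to 11.5 FPKM. Stromal markers stood at 26.4 to 30.5 FPKM in WT and 30.1 to 36.1 FPKM in Exon2KO, nearly all of it Pecam1, with Col3a1 at 0 in every library. Myeloid markers were highest in the libraries numbered 20, at 42.6 FPKM in WT 20 and 31.0 FPKM in Exon2KO 20 against 11.7 to 15.3 FPKM in the other 4. Erythroid markers ranged from 4.51 to 18.2 FPKM in WT and from 2.90 to 12.8 FPKM in Exon2KO. No marker of another cell type passed edgeR's quasi-likelihood test, whose threshold is an adjusted p under 0.05 over all genes. With the column number (2, 6 or 20) added to the fit as a block, 5 of the 8 Treg markers passed as lower (Tnfrsf18 and Lrrc32 joined those 3), where 5.79% of all genes did. In that fit Cd79b and Lyz2 also passed as lower and Pecam1 as higher.

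A minority of the members, from all 7 families, was expressed in WT Tregs. With a gene called expressed when it reached 1 FPKM in every WT library, 19 of the 64 members were expressed: 1 of 7 in Slc1, 1 of 2 in Slc3, 1 of 21 in Slc6, 5 of 16 in Slc7, 2 of 4 in Slc36, 6 of 11 in Slc38 and 3 of 3 in Slc43. The same rule gave 18 in Exon2KO, where Slc7a10 alone dropped out. Both counts include Slc7a6os, which is no transporter, as does the 5 in Slc7. Slc7a6os also gave 3.88% to 4.60% of the summed FPKM of all members in WT libraries. The summed level of all members was 307, 311 and 314 FPKM in WT 2, 6 and 20 and 285, 298 and 308 FPKM in Exon2KO 2, 6 and 20. The 4 most abundant, Slc1a5, Slc3a2, Slc38a2 and Slc38a10, made up 55.5% to 58.6% of that sum in WT and 56.5% to 60.2% in Exon2KO libraries. In the order of WT levels, these 4 and the next, Slc6a6, did not overlap from one to the next over the 3 WT libraries. Slc6a6, Slc7a5 and Slc7a6 overlapped and have no order among themselves. So did each neighbouring pair in the run Slc36a1, Slc43a2, Slc7a1, Slc7a10, Slc38a7, Slc43a3 and Slc36a4, and the lowest pair, Slc38a6 and Slc43a1.

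**Figure D1:**
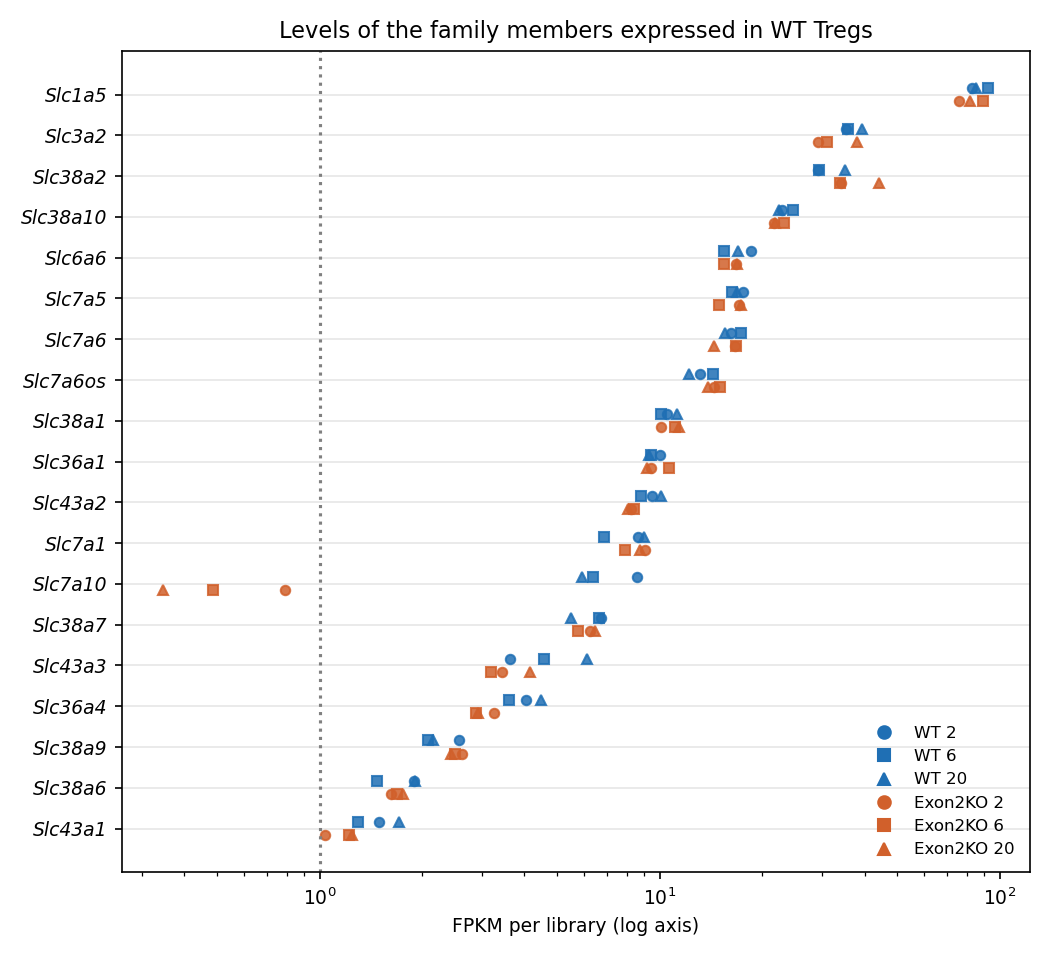
FPKM of each of the 19 members expressed in WT Tregs, on a log axis, with 1 point per library (blue WT, orange Exon2KO, shape the column number) and a dotted line at 1 FPKM. Slc7a10 is the only member whose Exon2KO libraries all lie under 1 FPKM, at 0.346 to 0.790 FPKM against 5.89 to 8.60 FPKM in WT.

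Between the genotypes, 1 of the 27 members with enough counts to be tested passed, where 2.33% of all tested genes did. Slc7a10 (ENSMUSG00000030495) encodes Asc-1, a light chain that exchanges small neutral amino acids such as glycine, alanine, serine and D-serine, and is best known from brain and fat. WT 2, 6 and 20 gave 338, 244 and 265 counts, against 30, 20 and 13 from the Exon2KO libraries of the same numbers. CPM, used below for differences, are counts scaled by the library size after TMM scaling, without gene length. On this scale the WT libraries stood at 18.1, 13.4 and 12.4 and the Exon2KO libraries at 1.67, 1.03 and 0.731. The groups lay far apart, and the lowest WT library was well above the highest Exon2KO library. The mean fell from 14.7 ± 3.05 CPM (SD, n = 3) to 1.14 ± 0.478 CPM (SD, n = 3), a log2 fold change of -3.68 (SE 0.30, 95% interval -4.35 to -3.00), which is 12.8-fold lower, with an adjusted p of 0.00085 in edgeR's quasi-likelihood test. Between libraries of the same number, the log2 ratio was -3.44 for number 2, -3.71 for number 6 and -4.09 for number 20. The summed B cell markers given above were also lower in every Exon2KO library than in any WT library, with 0 of 5 called, and their part in this result was not tested. In bulk RNA, fewer cells that express a gene and less RNA per cell cannot be told apart.

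Slc7a10 lies on chr7:35186385-35201114 on the plus strand (GRCm38), and its longest transcript has 11 exons. Its last exons run into the end of Lrp3 (ENSMUSG00000001802, a receptor of the LDL receptor family), which lies on the minus strand at chr7:35200027-35215498. The genes overlap by 1088 bases, of which 377 are exonic in both. That is 17.9% of the exon bases of Slc7a10 and 8.02% of those of Lrp3, and 140 of the shared bases are coding in Slc7a10 and 0 in Lrp3. Lrp3 fell too. WT 2, 6 and 20 gave 59, 57 and 54 counts for it, against 3, 4 and 7 from the Exon2KO libraries of the same numbers (log2 fold change -3.50, SE 0.41, adjusted p = 0.00323 in edgeR's quasi-likelihood test). Its groups did not overlap either. Over all 6 libraries Lrp3 had 184 counts and Slc7a10 had 910. The strand setting of the counting is not given in the sources used here, and how far the Lrp3 counts are reads of Slc7a10 in the shared bases was not tested.

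**Figure D2:**
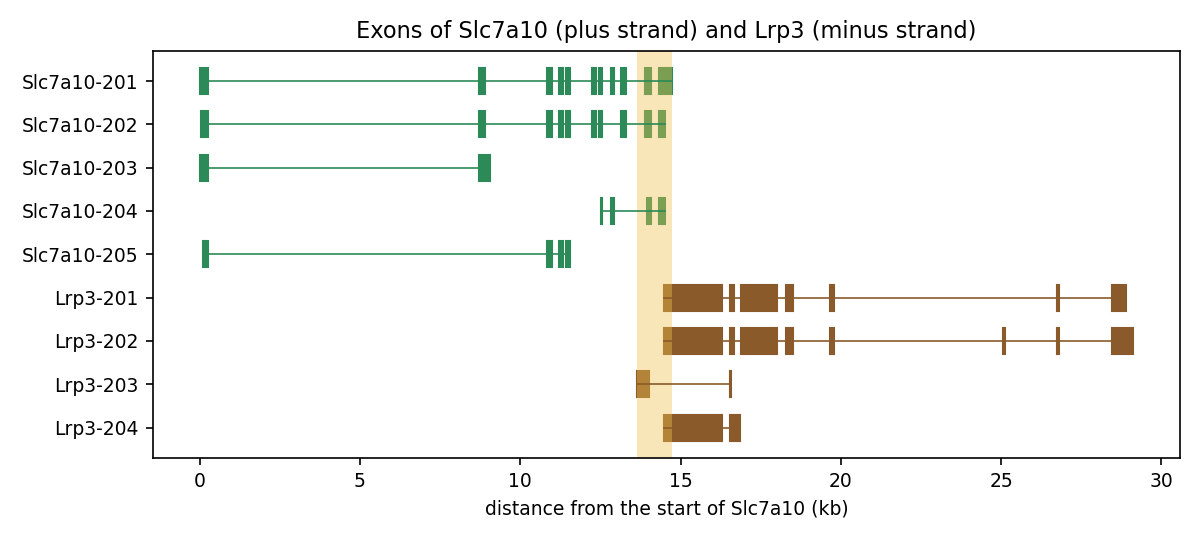
Exons (boxes) of the annotated transcripts of Slc7a10 (green) and Lrp3 (brown), by distance in kb from the start of Slc7a10, with the 1088 bases where the genes overlap shaded. The overlap takes in the last exons of Slc7a10-201 and part or all of the last exon of each Lrp3 transcript. The starts of the genes lie at opposite ends.

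The promoter of Slc7a10 is shown because it was the only member called. It is the 250 bases before the start (RefSeq, GRCm38.p6, chr7:35186135-35186384, plus strand, 5′ to 3′), in lower case throughout because none of the motifs searched was found in it.
Slc7a10: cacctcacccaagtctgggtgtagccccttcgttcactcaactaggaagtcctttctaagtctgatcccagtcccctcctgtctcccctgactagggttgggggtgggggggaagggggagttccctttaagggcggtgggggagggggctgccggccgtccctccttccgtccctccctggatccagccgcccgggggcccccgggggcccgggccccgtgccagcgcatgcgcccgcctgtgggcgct
The window holds 69.6% G and C, against a median of 52.4% over 32851 promoters of the same length and 62.4% over the 26 windows available for 19 of the tested members. The motifs were searched on both strands. TGATGNA, the start of the composite site that the amino acid response factors C/EBP and ATF bind, occurred in 10.4% of all promoters and in 2 of the 26, both of Slc7a7. CACGTG, the E-box, occurred in 6.02% of all and in 3 of the 26 (Slc36a1, Slc38a7 and Slc43a1). TGTTTAC, a forkhead motif, occurred in 3.17% of all and in 1 of the 26 (Slc36a3). The absence of these letters from the Slc7a10 window says nothing about the factors.

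No difference passed the test for the heavy chain of Slc7a10 or for its expressed relatives. Slc3a2, the heavy chain CD98hc that carries these light chains to the surface, was the second most abundant member, with 35.4, 35.7 and 39.4 FPKM in WT 2, 6 and 20 and 29.3, 31.0 and 37.99 FPKM in Exon2KO 2, 6 and 20. The groups overlapped, though every Exon2KO library lay under the WT library of its number. The difference of -0.17 (log2, SE 0.10, 95% interval -0.40 to 0.06) did not pass the test (adjusted p = 0.624, edgeR). With the block it was -0.17 (SE 0.06, 95% interval -0.31 to -0.04) and did not pass either (adjusted p = 0.0987, edgeR). Without the block it was -0.29 when Exon2KO 20 was left out and -0.10 when Exon2KO 2 was, the extremes of 6 such fits, none of which passed. Slc7a5 (LAT1, the exchanger that brings in leucine and other large neutral amino acids) stood at 17.5, 16.3 and 16.9 FPKM in WT and at 17.1, 14.95 and 17.3 FPKM in Exon2KO libraries of the same numbers. Its log2 difference was -0.04 (95% interval -0.23 to 0.15). Slc7a6 (y+LAT2, which exchanges cationic for neutral amino acids) stood at 16.2, 17.4 and 15.6 FPKM in WT and 16.7, 16.8 and 14.4 FPKM in Exon2KO, a log2 difference of -0.03 (95% interval -0.23 to 0.16). For both light chains the libraries of the genotypes interleaved. Slc7a6os, the gene beside Slc7a6, stood at 13.1, 14.3 and 12.2 FPKM in WT and 14.4, 15.1 and 13.9 FPKM in Exon2KO, a log2 difference of 0.13 (95% interval -0.06 to 0.32) with overlapping groups.

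Slc7a7 (y+LAT1, with the same exchange as Slc7a6) reached at most 0.831 FPKM in a library and differed by -0.14 (log2, SE 0.29). The cystine exchanger Slc7a11 was at 1, 0 and 1 counts in WT 2, 6 and 20 against 2, 1 and 0 in Exon2KO. The neutral exchanger Slc7a8 was at 2, 4 and 8 counts in WT against 1, 6 and 5 in Exon2KO. Neither had enough counts to be tested. Of the 10 light chains, 3 were expressed in WT and 4 had 0 counts throughout.

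The light chains together came to 42.9, 40.9 and 39.1 FPKM in WT 2, 6 and 20. In Exon2KO 2, 6 and 20 they came to 35.2, 32.8 and 32.8 FPKM, with no overlap between the genotypes. The other expressed light chains, Slc7a5 and Slc7a6, interleaved between the genotypes. Slc7a10 is part of the sum, so its lack of overlap is no result apart from the fall of Slc7a10. Slc7a10 gave 20.05%, 15.6% and 15.1% of that sum in WT and 2.24%, 1.48% and 1.06% in Exon2KO. Light chain over heavy chain FPKM was 1.21, 1.15 and 0.993 in WT and 1.20, 1.06 and 0.864 in Exon2KO. The ratios overlapped between the groups, though each Exon2KO ratio was below the WT ratio of its number. Slc7a10 is in the light chain term of every ratio as well. RNA ratios of this kind do not give the ratio of the proteins.

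Outside Slc7, no carrier of glutamine and small neutral amino acids passed the test without the block. Slc1a5 (ASCT2, a sodium-dependent exchanger of glutamine and other neutral amino acids) was the most abundant member, with 82.7, 92.6 and 85.1 FPKM in WT 2, 6 and 20 and 75.9, 88.9 and 81.5 FPKM in Exon2KO. It gave 27.0% to 29.7% of all member FPKM in WT. Every Exon2KO library lay under the WT library of its number, but the groups overlapped and the log2 difference was -0.08 (95% interval -0.27 to 0.11, adjusted p = 0.836, edgeR).

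Its close relative Slc1a4 (ASCT1, a carrier of alanine, serine and cysteine) was barely detected, at 0.1504 to 0.299 FPKM in WT and 0.226 to 0.457 FPKM in Exon2KO. Each Exon2KO library was above the WT library of its number, but the groups overlapped, and the log2 difference of 0.57 (SE 0.43, 95% interval -0.39 to 1.52), the most positive of the 27, did not pass (adjusted p = 0.725, edgeR). Slc1a4 was named after its values were seen. The glutamate carriers of the family had too few counts to be tested.

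Slc38a2 (ENSMUSG00000022462, chr15:96687392-96699730, GRCm38) encodes SNAT2, a sodium-coupled carrier of small neutral amino acids known to be induced when amino acids run short. It had 258, 260 and 309 CPM in WT 2, 6 and 20 and 302, 300 and 389 CPM in Exon2KO 2, 6 and 20. Each Exon2KO library was above the WT library of its number, while WT 20 was above Exon2KO 2 and 6. The log2 difference of 0.26 (SE 0.12, 95% interval -0.01 to 0.53) did not pass the test (adjusted p = 0.431, edgeR). With the column number as a block, which compares libraries of the same number, it was 0.26 (SE 0.06) and passed (adjusted p = 0.0132, edgeR). With 1 library left out it ran from 0.12 (without Exon2KO 20) to 0.35 (without WT 20) and passed in none of these fits.

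Slc38a1 (SNAT1, a relative that also carries glutamine) lies 44478 bases from Slc38a2 on chromosome 15. Its levels were 10.5, 10.1 and 11.2 FPKM in WT and 10.1, 11.1 and 11.4 FPKM in Exon2KO, and its log2 difference was 0.03 (95% interval -0.15 to 0.21). Slc38a10, a less well described relative, was the fourth most abundant member, at 22.9, 24.6 and 22.4 FPKM in WT and 21.7, 23.2 and 21.8 FPKM in Exon2KO (log2 difference -0.07, 95% interval -0.23 to 0.10). The groups overlapped for both.

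**Figure D3:**
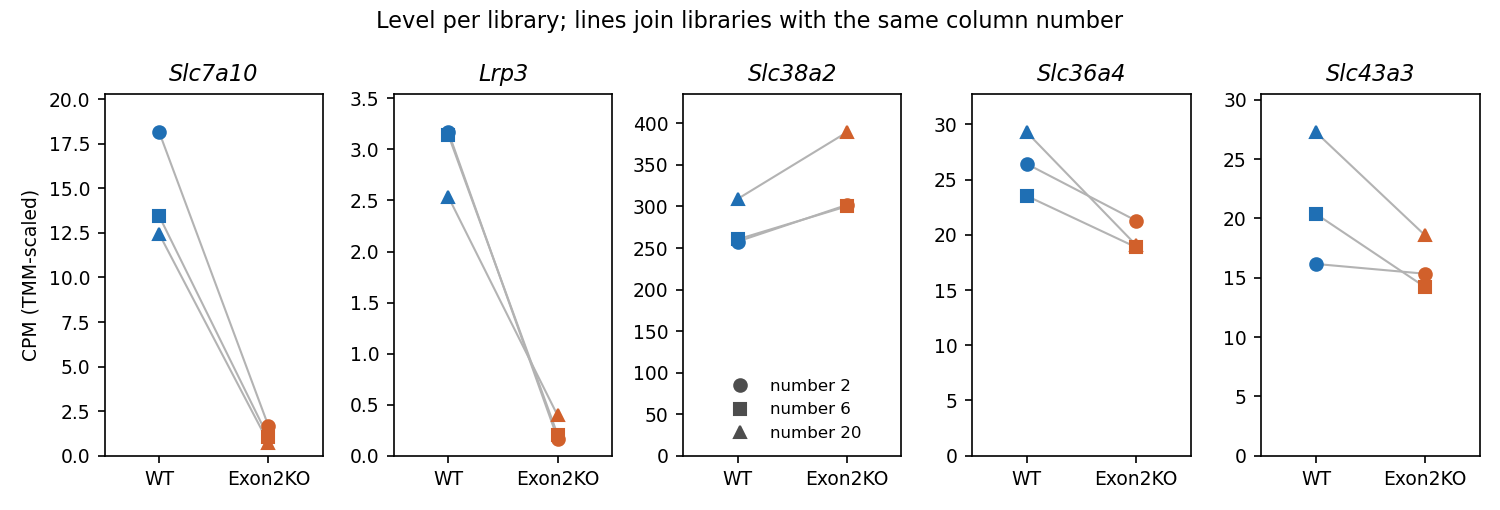
CPM of Slc7a10, its overlapping neighbour Lrp3, and the members called only with the block (Slc38a2, Slc36a4 and Slc43a3), with 1 point per library and lines joining libraries of the same column number. All axes start at 0, and every line runs the same way within a gene, from 18.1, 13.4 and 12.4 down to 1.67, 1.03 and 0.731 CPM for Slc7a10 and from 258, 260 and 309 up to 302, 300 and 389 CPM for Slc38a2.

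Of the lysosomal carriers among the members, and their relatives in these families, none passed without the block, and Slc36a4 passed with it. Slc38a9, the lysosomal arginine sensor that talks to mTORC1, stood at 2.57, 2.09 and 2.15 FPKM in WT 2, 6 and 20 and at 2.63, 2.51 and 2.43 FPKM in Exon2KO (log2 difference 0.15, 95% interval -0.08 to 0.38, adjusted p = 0.675, edgeR). Slc38a7, which lets glutamine out of lysosomes, stood at 6.71, 6.65 and 5.48 FPKM in WT and 6.24, 5.74 and 6.44 FPKM in Exon2KO (log2 difference -0.03, 95% interval -0.30 to 0.23). Slc36a1 (PAT1, a proton-coupled carrier of small amino acids) stood at 10.02, 9.45 and 9.27 FPKM in WT and 9.42, 10.7 and 9.20 FPKM in Exon2KO (log2 difference 0.03, 95% interval -0.16 to 0.22). Libraries of the genotypes interleaved for all 3.

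Slc36a4 (ENSMUSG00000043885, chr9:15709738-15743361, GRCm38; PAT4, a relative that carries proline and tryptophan) had 26.4, 23.5 and 29.3 CPM in WT 2, 6 and 20 and 21.3, 18.9 and 19.1 CPM in Exon2KO 2, 6 and 20. No Exon2KO library reached the lowest WT library. The mean was 26.4 ± 2.88 CPM (SD, n = 3) in WT and 19.7 ± 1.34 CPM (SD, n = 3) in Exon2KO, a log2 difference of -0.42 (SE 0.12, 95% interval -0.69 to -0.15) that did not pass the test (adjusted p = 0.146, edgeR). With the block it was -0.42 (SE 0.10) and passed (adjusted p = 0.0157, edgeR). With 1 library left out it ran from -0.49 to -0.34 and passed in none of these fits. Slc36a3, Slc36a2 and Slc36a1 lie side by side on chromosome 11, and of these only Slc36a1 was expressed.

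The Slc43 family was the only one apart from Slc3 in which every tested member had a negative value, and it was the only family expressed in full. Slc43a2 (LAT4) and Slc43a1 (LAT3) let large neutral amino acids pass without an ion gradient. Slc43a2 had 95.5, 88.3 and 101 CPM in WT 2, 6 and 20 and 82.5, 84.2 and 81.2 CPM in Exon2KO. The groups did not overlap, but the log2 difference of -0.20 (SE 0.08, 95% interval -0.37 to -0.03) did not pass over all genes (adjusted p = 0.2997, edgeR). Slc43a2 shares 9.18% of its exon bases with Gm45606 on the other strand, which had 973 counts in all against 10106.

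Slc43a3 (ENSMUSG00000027074, chr2:84936579-84958509, GRCm38) is placed in the family by sequence and is known to carry purine bases. It had 16.2, 20.4 and 27.3 CPM in WT 2, 6 and 20 and 15.3, 14.2 and 18.6 CPM in Exon2KO. Exon2KO 20 lay above WT 2, so the groups overlapped. The log2 difference was -0.41 (SE 0.20, 95% interval -0.85 to 0.03, adjusted p = 0.469, edgeR), and with the block -0.39 (SE 0.12, adjusted p = 0.0483, edgeR). With 1 library left out it ran from -0.58 (without WT 2) to -0.19 (without WT 20) and passed in none of these fits. WT 20 and Exon2KO 20, the highest of their groups here, are the libraries with the most myeloid marker RNA, and the part of that in the level of Slc43a3 was not tested. Slc43a1, its neighbour at 72984 bases, had 8.54, 7.44 and 9.81 CPM in WT and 5.95, 6.98 and 7.15 CPM in Exon2KO, with no overlap (log2 difference -0.36, SE 0.18, adjusted p = 0.506, edgeR).

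The cationic carrier in use was Slc7a1 (CAT1, the main importer of arginine and lysine), with 8.62, 6.86 and 8.98 FPKM in WT 2, 6 and 20 and 9.03, 7.88 and 8.73 FPKM in Exon2KO. The groups overlapped (log2 difference 0.07, 95% interval -0.17 to 0.31). Its relative Slc7a3 stayed at or under 0.285 FPKM in every library, and Slc7a2 had 0 counts throughout. The orphan relative Slc7a4 had the most negative value after Slc7a10, -0.98 (log2, SE 0.47, 95% interval -2.03 to 0.06), from 1.34, 1.71 and 1.64 CPM in WT to 1.06, 0.308 and 1.01 CPM in Exon2KO. The groups did not overlap, but at these counts the difference did not pass (adjusted p = 0.455, edgeR), and 13.3% of its exon bases also belong to P2rx6. Slc7a4 was named after its values were seen.

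In Slc6, the family of neurotransmitter, taurine, creatine and neutral amino acid carriers, 11 of 21 genes had 0 counts in all 6 libraries. The only member expressed was Slc6a6 (TauT, the taurine carrier), with 18.6, 15.4 and 17.0 FPKM in WT 2, 6 and 20 and 16.8, 15.5 and 16.9 FPKM in Exon2KO. Its log2 difference was -0.05 (95% interval -0.25 to 0.14), and the groups overlapped. The creatine carrier Slc6a8 followed at 0.371 to 0.766 FPKM in WT and 0.512 to 0.659 FPKM in Exon2KO. Slc6a20b reached the test with 55 counts in all, and 21.1% of its exon bases are shared with Sacm1l, which had 4814.

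Across all families, 27 of the 64 members had enough counts to be tested, 21 had 0 counts in every library, and the other 16 had between 1 and 26 counts in all. For the 21, a count of 0 allows up to 3 counts per library, or 0.0137 to 0.0970 FPKM depending on gene length and depth, which covers counting error only. Of the 27 tested, 1 passed as lower and 0 as higher in Exon2KO, where 2.33% of all 14919 tested genes passed (1.58% lower and 0.757% higher). DESeq2 and limma-voom also called 1 member, Slc7a10. DESeq2 called 4.18% of the 15509 genes to which it gave an adjusted p, and limma-voom called 1.94% of all tested genes. An unadjusted p under 0.05 in edgeR was reached by 3 members and by 12.1% of all genes. With the block, 4 members passed (Slc38a2 higher, and Slc7a10, Slc36a4 and Slc43a3 lower), where 9.72% of all genes did (3.93% higher and 5.79% lower). The groups did not overlap for 5 members, Slc43a2, Slc7a10, Slc36a4, Slc43a1 and Slc7a4, or 18.5% of the tested, against 17.7% of all genes. The share without overlap is near the background. The median log2 fold change of the tested members was -0.06 and that of all genes 0.0084, and 18 of 27 members were negative, against 48.2% of all genes.

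The data also bound what the other expressed members can have done. For the 18 expressed members other than Slc7a10, log2 differences lay between -0.42 and 0.26, or 0.747 to 1.20 of the WT level. All 18 intervals (95%) lay within 1 log2 unit of no change on either side, and 14 lay within 0.5. For the 8 tested members that were not expressed, the SE ran from 0.29 to 0.59, so differences of the size seen for abundant members could not be detected there.

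**Figure D4:**
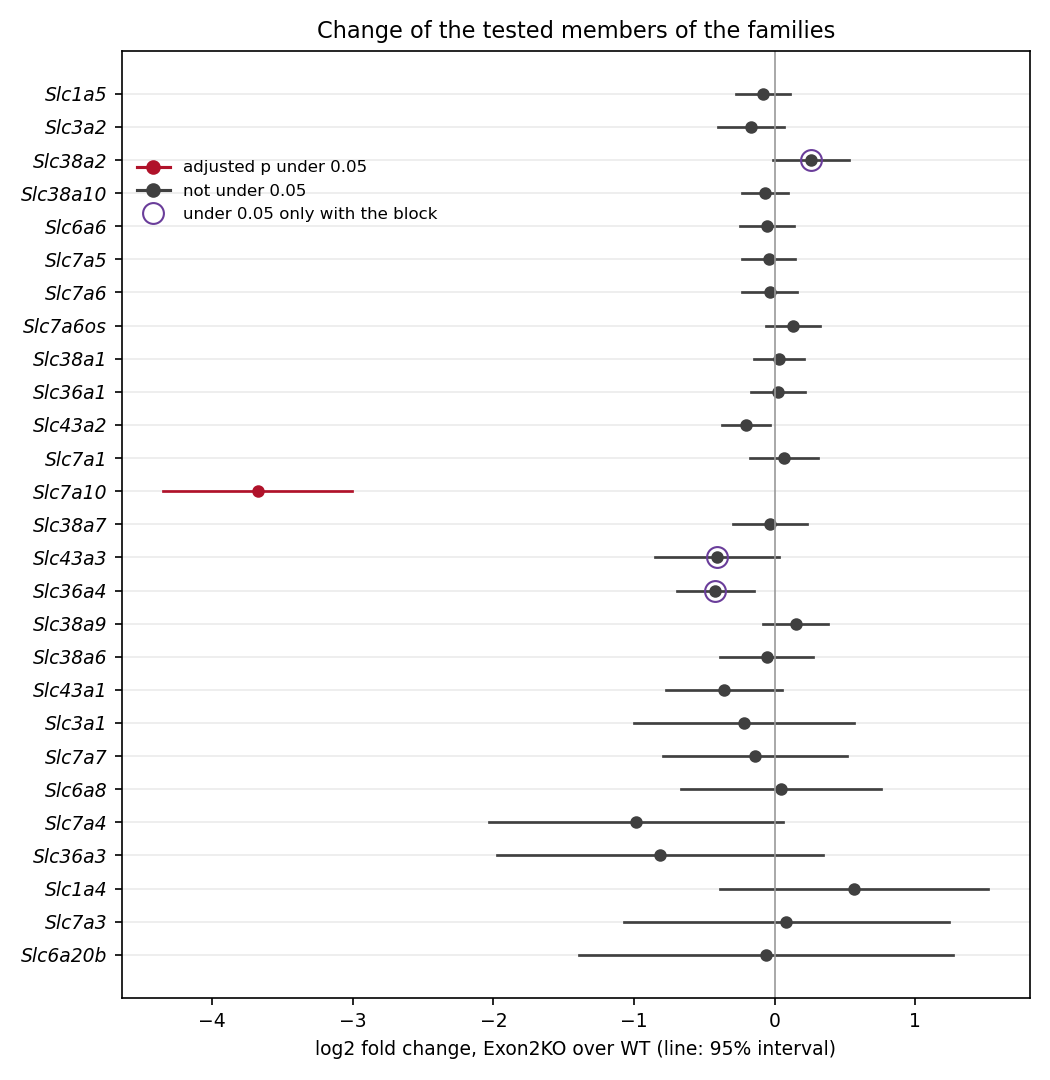
Log2 fold change of Exon2KO over WT for the 27 tested members, ordered by WT FPKM, with lines for the 95% interval of the edgeR fit without the block. Slc7a10 stands apart at -3.68, the other expressed members lie between -0.42 and 0.26, and the intervals widen toward the low members at the bottom.

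Other genes that handle amino acids were taken from 5 lists. Of 18 other amino acid carriers, 17 were tested and 1 fell, 0 rose, where 1.58% and 0.757% of all genes did. This was Slc15a3, a lysosomal carrier of histidine and small peptides, with 7.79, 7.66 and 9.43 CPM in WT 2, 6 and 20 and 2.78, 3.23 and 2.03 CPM in Exon2KO. The groups lay apart, and the log2 fold change was -1.63 (SE 0.24, adjusted p = 0.00887, edgeR), or 3.09-fold lower. Without Exon2KO 2 its adjusted p was 0.0574 (edgeR). Slc17a5, a lysosomal carrier of sialic acid, had a value of -0.54 (SE 0.15) that passed with the block and in no other alternative run (adjusted p = 0.115 without and 0.0106 with it, edgeR), and Slc25a44, a mitochondrial carrier of branched-chain amino acids, had 0.26 (adjusted p = 0.327, edgeR). The median of the list was -0.01.

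Of 33 genes of amino acid sensing by mTORC1, all tested, 2 fell and 0 rose, where 1.58% and 0.757% of all genes did. Rragd, a Rag GTPase that brings mTORC1 to the lysosome, had 33.0, 30.7 and 27.5 CPM in WT 2, 6 and 20 and 16.8, 15.9 and 19.0 CPM in Exon2KO (log2 fold change -0.82, SE 0.12, adjusted p = 0.0094, edgeR). Castor2, a relative of the arginine sensor Castor1, had 36.2, 33.8 and 34.3 CPM in WT and 24.0, 25.5 and 24.6 CPM in Exon2KO (log2 fold change -0.49, SE 0.09, adjusted p = 0.0292, edgeR). Neither gene's groups overlapped. The Rragd call was lost without WT 2 (adjusted p = 0.0594, edgeR) and without Exon2KO 2 (0.0638), and the Castor2 call was lost whichever of the 6 libraries was left out (adjusted p 0.0614 to 0.152). Rragb, another Rag GTPase, had -0.78 (SE 0.24, adjusted p = 0.167, edgeR). With the block 6 genes passed as lower, Rragd, Castor2, Rragb, Lamtor4, Sesn2 and Sesn1, or 6 of 33, where 5.79% of all genes passed as lower. The median of the list was 0.0013.

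In the amino acid response downstream of the kinase GCN2 and the factor ATF4, 0 of 16 tested genes of 22 passed in edgeR, DESeq2 or limma-voom, and 5 had an unadjusted p under 0.05, where 12.1% of all genes did. The smallest p-values belonged to the serine synthesis enzymes Psat1 (log2 -0.34, adjusted p = 0.165, edgeR) and Phgdh (-0.26, 0.227) and to the factor Cebpb (-0.55, 0.253), which passed when WT 2 was left out (-0.76, adjusted p = 0.0378, edgeR). With the block 5 passed, Psat1, Phgdh, Cebpb and Sesn2 as lower and Ddit4 as higher, where 9.72% of all genes passed. The median of the list was -0.13, and 12 of 16 were negative, against 48.2% of all genes. Sesn2 is also in the sensing list.

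In amino acid metabolism, 0 of 25 tested genes of 27 passed in edgeR or limma-voom, DESeq2 called 1 (Odc1), and 1 had an unadjusted p under 0.05, where 12.1% of all genes did. Odc1, the enzyme that starts polyamine synthesis, had 178, 169 and 264 CPM in WT 2, 6 and 20 and 115, 107 and 167 CPM in Exon2KO. Each Exon2KO library was lower than the WT library of its number and also lower than every WT library. The log2 difference of -0.65 (SE 0.24) did not pass without the block (adjusted p = 0.345, edgeR). It passed with the block (adjusted p = 2.72e-06, edgeR), in DESeq2 (adjusted p = 0.0118) and without both libraries numbered 20 (adjusted p = 0.00535, edgeR). Without WT 20 it was -0.42 (adjusted p = 0.513, edgeR). Bcat1, a transaminase of branched-chain amino acids, had -0.47 and passed with the block alone among the alternatives run (adjusted p = 0.0475, edgeR), with -0.28 when Exon2KO 6 was left out. Ahcy, which splits S-adenosylhomocysteine, had -0.18 (0.474 without the block). The median of the list was -0.06.

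Among 10 regulators of carriers, 0 passed in edgeR or limma-voom, DESeq2 called 2 (Nfe2l2 and Bach2), and 6 had an unadjusted p under 0.05, where 12.1% of all genes did. Nfe2l2 (NRF2, the oxidative stress factor) had 33.1, 33.8 and 27.7 CPM in WT 2, 6 and 20 and 52.4, 56.0 and 39.0 CPM in Exon2KO, with no overlap. Its log2 difference was 0.64 (SE 0.14, adjusted p = 0.0565 without and 0.000104 with the block, edgeR). It also passed in DESeq2 (adjusted p = 0.00284), with no filter on low counts (0.00162, edgeR), without both libraries numbered 20 (0.0068) and without Exon2KO 20 (0.00836). Nedd4l, a ubiquitin ligase that removes carriers from the surface, had 0.33 (adjusted p = 0.167, edgeR), and Bach2, a repressor that keeps T cells quiescent, had 0.49 (0.180). With the block 6 passed, Nfe2l2, Nedd4l, Bach2 and Txnip as higher and Hif1a and Wwp2 as lower, where 9.72% of all genes passed. The median of the list was 0.12.

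**Figure D5:**
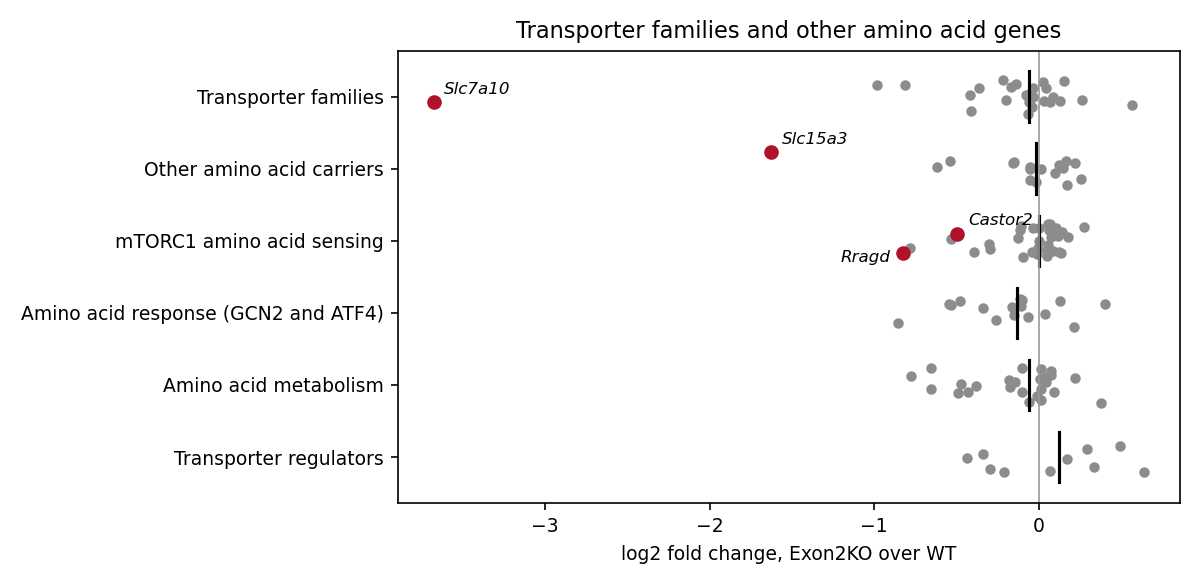
Log2 fold change of Exon2KO over WT for each tested gene of the transporter families and of the 5 other lists, with a bar at each list's median and in red the genes called by edgeR without the block. Slc7a10 at -3.68 and Slc15a3 at -1.63 lie farthest from 0, and the medians run from -0.13 to 0.12.

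In the authors' deposited table, 41 members have a comparison and 1 of them, Slc7a10, has an adjusted p under 0.05, where 2.55% of 24985 genes do.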

How the data were processed

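Per the labels' protocols, RNA was purified on columns and made into Illumina libraries. The submitters' processing notes name HISAT2 2.0.5, StringTie 1.3.3b, featureCounts 1.5.0-p3, DESeq2 1.16.1 and the build mm10, with no role or order; the strand setting is not given in the sources used here. Per the file headers, the authors deposited for each library a count column (whole numbers per gene, not normalized) and a gene length. The 6 deposited FPKM columns were not used: FPKM here were computed from the counts, the gene length and the TMM-scaled library size, where the plan had named the deposited values. This scale was chosen after levels on the deposited, unscaled and TMM-scaled bases had been seen. The authors' deposited comparison holds group means as a scaled signal, log2 fold changes and p-values, and is quoted only by that name.

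Counts were tested with edgeR 4.0.16 in R 4.3.3 (filterByExpr, TMM, robust quasi-likelihood), Exon2KO against WT, with all 6 libraries, two-sided, adjusted by Benjamini-Hochberg over 14919 genes and called under 0.05. Alternatives used limma 3.58.1, DESeq2 1.42.0, other filters and scalings, and left-out libraries. Members are at the same position in GENCODE M21 (64 of 64), which uses GRCm38. Nothing in the labels says whether the replicates came from separate mice, so p-values measure the spread between these samples.

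Deviations from the group means of same-numbered columns correlated at 0.271 (2), 0.369 (6) and 0.494 (20) over genes. Between WT and Exon2KO columns of different numbers they ran from -0.372 to 0.0538. The column numbers were therefore taken to pair the libraries in the block fit, a pairing read from these same data. The main fit left it out. In the block fit, the column number itself passed for 1559 of the 14919 genes. The labels do not say what the numbers stand for. No pair of libraries of 1 genotype agreed within sampling noise. The limit that a count of 0 allows, 3 counts in a library, is 0.143 to 0.167 CPM on unscaled library totals. The scripts were tested on simulated data.

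The members, lists and tests were chosen with earlier results of these data known. Genes named are members called with or without the block, those changed by at least 1 log2 unit, the 12 highest in WT, the light chain, glutamine and lysosomal carriers, and in each list the called genes and the 3 with the smallest p. Other genes were named after their values were seen. Of 34 sensing genes listed, Kics2 could not be matched.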

Additional observations from a re-analysis of the deposited data

How the results depend on the processing

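Slc7a10 was called lower under all 14 alternatives, with log2 fold changes from -4.05 to -3.45 and a largest adjusted p of 0.0103 (edgeR and the other tools), and it was the only member called in all of them except the replicate block on the column number, which called 4. The replicate numbers in the titles could not serve as a block, since no column name carries them. No paired analysis was possible because of that for the titles, and the block used is the column number. Over all genes, 348 calls became 617 with no filter on low counts, 649 with DESeq2, 1450 with the block and 86 to 314 when 1 library was left out. With the block, calls were 2 among the other carriers, 6 in sensing, 5 in the amino acid response, 2 in metabolism and 6 among the regulators. DESeq2 called 1 gene of metabolism and 2 regulators, and no filter on low counts gave 1 regulator. Without both libraries numbered 20, 1 gene was called in each of sensing, metabolism and the regulators. Leaving out 1 library gave 0 to 1 calls among the other carriers, in sensing, in the response and among the regulators; the cause of these changes was not tested, though fewer samples entered. FPKM on unscaled library totals, added after seeing the data, also gave 19 expressed members in WT, but there Slc38a1 and Slc36a1 overlapped between WT libraries. Expressed members in WT numbered 21 at 0.5 FPKM, 14 at 5 FPKM and 19 to 20 with 1 WT library left out. Of 34 single genes followed, 10 kept their direction and side of the threshold in every alternative run for them (13 for Lrp3, 14 for the others). The call was gained somewhere by 13 and lost by 3, and 8 changed direction, all with log2 values near 0 when 1 library was left out. These ranges were -0.12 to 0.010 for Slc6a6, -0.084 to 0.014 for Slc7a5, -0.082 to 0.029 for Slc7a6, -0.010 to 0.075 for Slc38a1, -0.051 to 0.064 for Slc36a1, -0.040 to 0.14 for Slc7a1, -0.26 to 0.025 for Slc7a7 and -0.12 to 0.015 for Slc38a7. Depth limits the members under 1 FPKM, where small differences were not detectable.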
